A study of Homo sapiens with 22 samples.

Results

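The 7 genes described here are NR4A1, NR4A2 and NR4A3, which encode the NR4A nuclear receptors, and RGS2, RGS3, RGS4 and RGS16, which encode regulators of G protein signalling. They are 7 of 58278 gene entries in the count tables, matched from Ensembl identifiers to symbols, and they were chosen by their measured levels, as genes with higher values with thapsigargin than with tunicamycin. Therefore every comparison of thapsigargin with tunicamycin or untreated cells below is a description with no test. The data go against that choice for RGS4: its level with thapsigargin was close to that with tunicamycin at 2 h and lower at 6 h, in RNA and in ribosome footprints alike. The other 6 genes were above every untreated library and every tunicamycin library of the same time, at both times in both assays.

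NR4A receptors are orphan nuclear receptors that bind DNA without a known physiological hormone, and their genes are classic immediate early genes, transcribed within a short time of a calcium, cyclic AMP or growth factor signal without new protein synthesis. RGS proteins speed up the hydrolysis of GTP by G protein alpha subunits and so shorten signalling from G protein-coupled receptors; RGS2 acts mainly on Gq, while RGS4 and RGS16 act on Gi and Gq. Thapsigargin blocks the SERCA pump, which empties the calcium store of the endoplasmic reticulum (ER) into the cytosol, whereas tunicamycin blocks N-linked glycosylation of proteins in the ER. Both cause ER stress and the unfolded protein response.

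All libraries came from LN308, a human cell line labelled as p53-deficient glial cells from an astrocytoma, so untreated and treated groups share that background. There were 11 libraries of RNA-Seq, made from total RNA, and 11 of Ribo-Seq, which reads the mRNA fragments that ribosomes protect. In each assay there were 3 libraries of untreated cells (0 h), 3 after 2 h and 3 after 6 h with 2.5 µg/ml tunicamycin, and 1 after 2 h and 1 after 6 h with 200 nM thapsigargin. The control is called untreated after its label, whereas DMSO is given as the control in the treatment protocol. Vehicle-treated cells at 2 h or 6 h were not used here, so time in culture and drug cannot be told apart. The labels do not say that replicates were separate cultures, so the p-values below measure the spread between these libraries, which may be technical. LN308 is 1 line.

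The genes lie at these RefSeq positions in GRCh38.p14, all annotated as protein coding. NR4A1 spans chr12:52022832-52059503, NR4A2 chr2:156324437-156332721 and NR4A3 chr9:99821885-99866891. RGS2 spans chr1:192809039-192812275, RGS3 chr9:113444730-113597738, RGS4 chr1:163068871-163076802 and RGS16 chr1:182598623-182604389. Promoter windows were matched for 6 of the 7 genes in the RefSeq table, and NR4A2 had none. Below are the 250 bases before the annotated start of NR4A3, the gene with the largest fold over tunicamycin at 6 h, and of RGS2 and RGS16, which were raised in the same libraries; they are written 5′ to 3′ on the gene's own strand, with the letters TGACG, or CGTCA for the same letters on the other strand, in capitals. TGACG is the core of the binding site of CREB and ATF factors.

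NR4A3, chr9:99821635-99821884, plus strand: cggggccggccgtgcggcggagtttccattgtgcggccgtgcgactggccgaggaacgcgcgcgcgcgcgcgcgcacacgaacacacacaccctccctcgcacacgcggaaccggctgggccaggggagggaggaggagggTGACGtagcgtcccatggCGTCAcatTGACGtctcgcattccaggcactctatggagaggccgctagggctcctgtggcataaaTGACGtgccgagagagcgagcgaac
RGS2, chr1:192808789-192809038, plus strand: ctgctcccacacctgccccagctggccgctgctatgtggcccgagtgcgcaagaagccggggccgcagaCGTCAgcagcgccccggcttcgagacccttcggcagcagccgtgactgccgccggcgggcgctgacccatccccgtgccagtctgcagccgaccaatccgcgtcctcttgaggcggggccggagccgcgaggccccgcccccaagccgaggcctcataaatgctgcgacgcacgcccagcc
RGS16, chr1:182604390-182604639, minus strand: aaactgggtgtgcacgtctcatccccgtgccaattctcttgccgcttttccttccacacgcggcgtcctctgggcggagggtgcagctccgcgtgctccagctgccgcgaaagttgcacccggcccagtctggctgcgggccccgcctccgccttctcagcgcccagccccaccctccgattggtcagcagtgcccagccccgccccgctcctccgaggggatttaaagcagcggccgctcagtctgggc

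TGACG was found 4 times before NR4A3, beginning 109, 91, 83 and 25 bases upstream of the start, 1 time before RGS2, 181 bases upstream, and not before RGS16. Of all 34943 windows of this length in the table, 21.2% hold TGACG on either strand and 0.238% hold it at least 4 times. RGS3 has it in 1 of its 5 windows and RGS4 in 2 of 4 windows that overlap each other, while neither of the 2 NR4A1 windows has it. The full palindrome TGACGTCA, which contains TGACG (1.63% of windows), the serum response element known as the CArG box (1.16%) and the NR4A response element AAAGGTCA (1.04%), searched on both strands, were in no window of the 6 genes. GGAAA, the core of NFAT sites, is in 55.7% of windows, and at least 1 window of each gene but RGS2 holds it. These matches describe letters in a window and say nothing of binding.

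Total counts per library were 101371822 to 166586145 in RNA-Seq and 4387173 to 29183769 in Ribo-Seq, and the members had 139 to 85523 counts per library in RNA-Seq and 19 to 19639 in Ribo-Seq. The glial label was checked against 10 markers: VIM, NES, S100B and OLIG2 were present in every RNA-Seq library (lowest of the 4, OLIG2, 9.80 to 44.0 counts scaled to a common library total, CPM), and the astrocyte marker SLC1A3 was at 1.65 to 33.7 CPM, while GFAP (0.678 to 3.38 CPM), AQP4 (at most 0.397 CPM), SOX9 (at most 0.656 CPM), SLC1A2 (at most 0.939 CPM) and ALDH1L1 (at most 1.16 CPM) were low. Summed RNA levels of the other marker lists were at most 2.81 CPM for 7 blood cell markers, 55.7 to 138 CPM for 5 epithelial markers, mostly KRT18, and 9.62 to 59.1 CPM for 7 endothelial and mural markers. The 5 neuronal markers, led by SYT1, summed to 81.8 to 115 CPM in untreated cells, 98.2 to 109 CPM at 2 h and 160 to 205 CPM at 6 h of tunicamycin, and to 128 and 210 CPM at 2 h and 6 h of thapsigargin, and were higher at 6 h than at 2 h with both drugs. Untreated replicate 1 stood apart: 53489 genes had a count there, while the remaining RNA-Seq libraries had 38264 to 40331, its TMM factor was 1.46 against 0.904 to 1.06, and RGS5, a marker of mural cells and a relative of the members, was at 41.7 CPM there and at 1.81 to 3.34 CPM elsewhere. The RNA-Seq libraries of tunicamycin replicate 1 and of thapsigargin also stood apart from the other 7: they had the highest scores on the second principal component (61.1 to 116 against at most 4.64), and mitochondrial mRNAs made up 0.443% to 0.587% of their counts against 1.06% to 1.61%. In Ribo-Seq, tunicamycin replicate 1 and thapsigargin had the highest scores on the first principal component (42.1 to 107 against at most -6.16). No untreated library was among them in either assay, so the folds of thapsigargin over untreated cells have no untreated library of that kind. What part these differences play in the results was not tested. In bulk samples fewer cells of a type and less RNA per cell cannot be told apart.

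All levels below are CPM scaled by the trimmed mean of M-values (TMM), compared within a gene only, since no transcript lengths were used. The plots of RNA-Seq and footprint levels by library show all values.

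**Figure D1:**
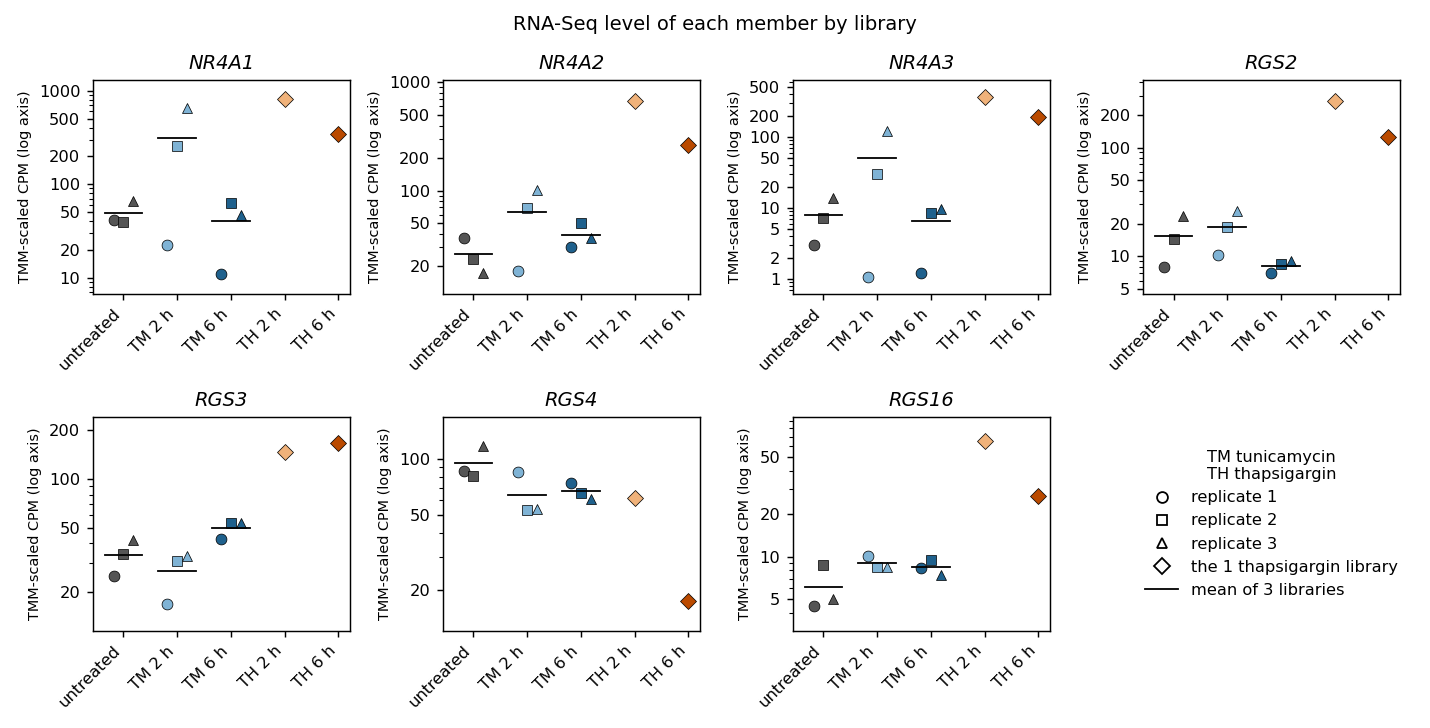
RNA-Seq level of each of the 7 genes (TMM-scaled CPM, log axis) in untreated cells and after tunicamycin (TM) or thapsigargin (TH) at 2 h and 6 h. Each point is 1 library, the shape gives the replicate number and the line the mean of 3 libraries. Thapsigargin points (diamonds, 1 library each) lie above all others except for NR4A1 and RGS4. For NR4A1, thapsigargin at 6 h (345 CPM) lies below tunicamycin replicate 3 at 2 h (645 CPM). The lowest RGS4 point, 17.3 CPM, is thapsigargin at 6 h.

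**Figure D2:**
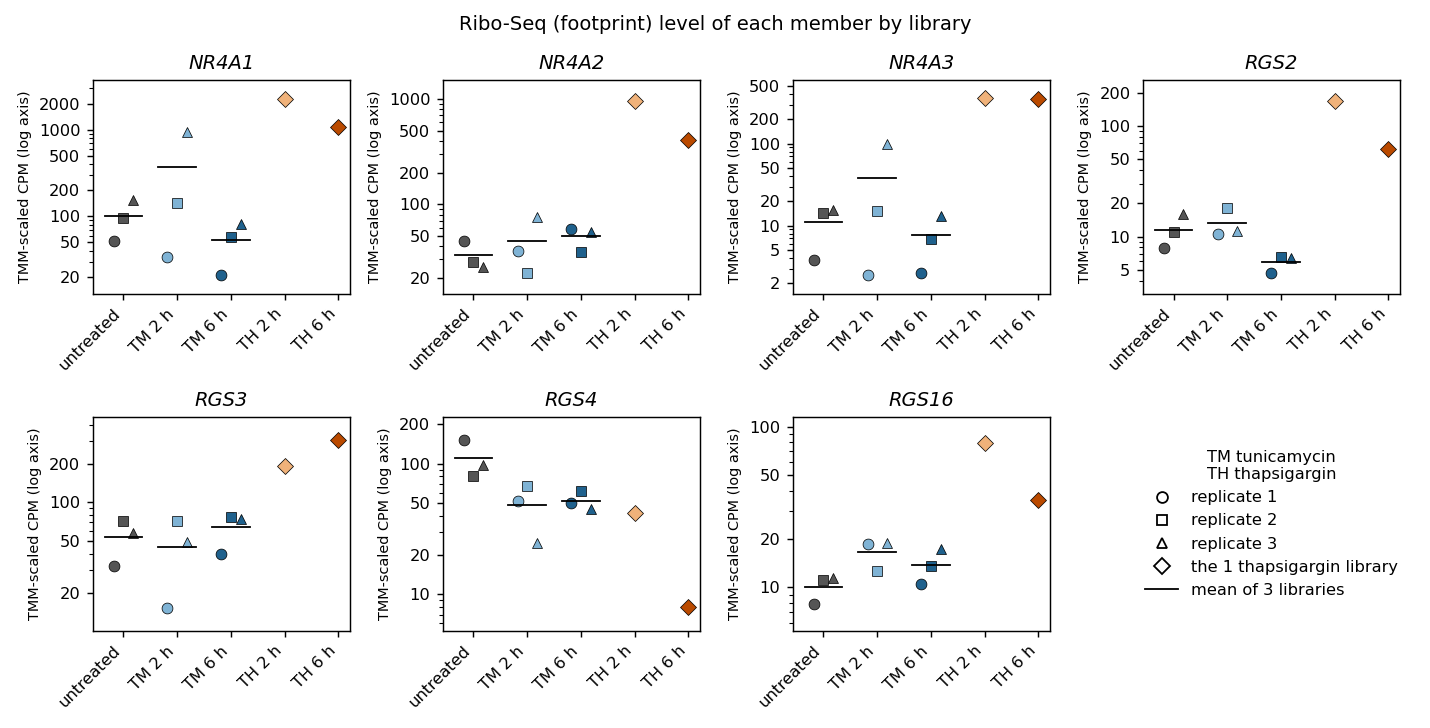
Ribo-Seq footprint level of each gene (TMM-scaled CPM, log axis), drawn as for RNA-Seq. The thapsigargin points lie above all others for 6 genes, with NR4A1 at 2288 CPM at 2 h, and RGS4 is lowest, at 7.96 CPM, with thapsigargin at 6 h.

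NR4A1 (Nur77) RNA was 41.3, 39.0 and 66.0 CPM in the 3 untreated libraries, and 806 CPM at 2 h and 345 CPM at 6 h with thapsigargin. With tunicamycin for 2 h it was 22.2 CPM in replicate 1, 256 CPM in replicate 2 and 645 CPM in replicate 3, and at 6 h it was 10.9, 63.4 and 46.3 CPM. The 3 tunicamycin libraries at 2 h thus lay on both sides of the untreated range, and the highest of them came close to thapsigargin. Thapsigargin was 2.62-fold over the tunicamycin mean at 2 h and 1.25-fold over the highest tunicamycin library, and without tunicamycin replicate 1 the log2 ratio to the mean went from 1.39 to 0.84, under 2-fold. Without replicate 3 it was 2.54, and against replicate 1 alone, which shares its number with the thapsigargin library, it was 5.18, a 36.3-fold difference. At 6 h it was 8.59-fold over the tunicamycin mean. Footprints of NR4A1 were 51.4, 95.1 and 153 CPM in untreated cells, 33.7, 142 and 944 CPM after 2 h and 21.0, 58.5 and 81.5 CPM after 6 h of tunicamycin, and 2288 and 1080 CPM with thapsigargin. That placed thapsigargin 6.13-fold over the tunicamycin mean at 2 h and 20.1-fold at 6 h. Without replicate 3 the log2 ratio at 2 h went from 2.62 to 4.70. Against tunicamycin replicate 1 alone the footprint folds were 67.8 at 2 h and 51.3 at 6 h.

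NR4A3 (NOR1) RNA was 2.99, 7.18 and 13.8 CPM in untreated cells and 367 and 191 CPM at 2 h and 6 h of thapsigargin. Tunicamycin gave 1.08, 30.1 and 123 CPM at 2 h and 1.23, 8.53 and 9.70 CPM at 6 h. As for NR4A1, replicate 1 was the lowest and replicate 3 the highest tunicamycin library at 2 h. Thapsigargin was 7.12-fold over the tunicamycin mean at 2 h and 29.5-fold at 6 h. Taken against tunicamycin replicate 1 alone, which shares its number with the thapsigargin RNA-Seq libraries, the ratios were 338-fold and 155-fold, so the size of the ratio moves with the tunicamycin library it is taken against. NR4A3 footprints were 3.86, 14.3 and 15.3 CPM in untreated cells, 2.47, 15.3 and 97.8 CPM after 2 h and 2.65, 6.94 and 13.3 CPM after 6 h of tunicamycin. Thapsigargin gave 359 CPM at 2 h and 349 CPM at 6 h, 9.34-fold and 45.7-fold over the tunicamycin means. The size moved with tunicamycin replicate 3 here too: without it the log2 ratio at 2 h went from 2.83 to 4.56 in RNA and from 3.22 to 5.34 in footprints, and at 6 h from 5.52 to 6.18 in footprints.

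NR4A2 (NURR1) RNA was 36.5, 23.6 and 17.4 CPM in untreated cells, 18.3, 68.8 and 102 CPM after 2 h and 30.4, 50.1 and 36.4 CPM after 6 h of tunicamycin. With thapsigargin it was 676 CPM at 2 h and 267 CPM at 6 h, 10.7-fold and 6.85-fold over the tunicamycin means and 6.64-fold and 5.33-fold over the highest tunicamycin library. The tunicamycin replicates spread less for NR4A2 than for NR4A1 and NR4A3, with replicate 1 again the lowest at 2 h. Its footprints were 44.8, 28.5 and 25.5 CPM in untreated cells, 36.2, 22.3 and 75.1 CPM at 2 h and 58.5, 35.7 and 54.7 CPM at 6 h of tunicamycin, and 966 and 411 CPM with thapsigargin. Here replicate 2, not replicate 1, was the lowest tunicamycin library at both times, and without replicate 3 the log2 ratio at 2 h went from 4.44 to 5.05.

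RGS2 RNA was 7.95, 14.5 and 23.2 CPM in untreated cells, 10.4, 18.6 and 26.3 CPM after 2 h and 7.08, 8.47 and 9.03 CPM after 6 h of tunicamycin. Thapsigargin gave 268 CPM at 2 h and 126 CPM at 6 h, 14.6-fold and 15.4-fold over the tunicamycin means. In RNA the thapsigargin library was 10.2-fold over the highest tunicamycin library at 2 h and 14.0-fold at 6 h, so the groups stood far apart. RGS2 footprints were 7.93, 11.01 and 15.9 CPM in untreated cells, 10.6, 18.1 and 11.3 CPM at 2 h and 4.74, 6.58 and 6.47 CPM at 6 h of tunicamycin, and 168 and 62.1 CPM with thapsigargin. The 3 tunicamycin libraries at 6 h were below all untreated and all 2 h tunicamycin libraries in footprints.

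RGS16, an RGS gene known to be induced by cell activation, had RNA at 4.48, 8.77 and 5.04 CPM in untreated cells, 10.0, 8.38 and 8.47 CPM after 2 h and 8.31, 9.45 and 7.41 CPM after 6 h of tunicamycin. Thapsigargin gave 64.8 and 26.7 CPM, 7.23-fold and 3.18-fold over the tunicamycin means. Its footprints were 7.83, 11.01 and 11.3 CPM in untreated cells and 18.5, 12.6 and 18.8 CPM after 2 h of tunicamycin, a small shift in which no libraries overlapped. They were 10.5, 13.6 and 17.3 CPM after 6 h of tunicamycin and 78.8 and 34.7 CPM with thapsigargin. At 6 h this was 2.51-fold over the tunicamycin mean and 2.00-fold over the highest tunicamycin library, the narrowest margin of the 6 genes in footprints at that time.

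RGS3 RNA was 25.0, 34.2 and 42.0 CPM in untreated cells, 16.8, 30.8 and 33.2 CPM after 2 h and 42.3, 53.3 and 53.6 CPM after 6 h of tunicamycin, and 147 and 166 CPM with thapsigargin. It was 5.44-fold and 3.34-fold over the tunicamycin means. RGS3 was the 1 member whose thapsigargin level was higher at 6 h than at 2 h, in RNA (1.13-fold) and in footprints (192 and 304 CPM, 1.59-fold). Its footprints were 32.2, 72.0 and 57.9 CPM in untreated cells, 15.4, 72.0 and 49.4 CPM at 2 h and 40.3, 77.8 and 74.0 CPM at 6 h of tunicamycin, with replicate 1 the lowest in each group.

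RGS4 ran the other way. Its RNA was 86.3, 81.1 and 117 CPM in untreated cells, 85.0, 53.3 and 53.6 CPM after 2 h and 74.2, 65.5 and 60.8 CPM after 6 h of tunicamycin. With thapsigargin it was 61.8 CPM at 2 h, inside the tunicamycin range, and 17.3 CPM at 6 h, below every other library. The thapsigargin level at 6 h was 3.86-fold below the tunicamycin mean and 5.47-fold below the untreated mean. RGS4 footprints were 151, 80.0 and 97.3 CPM in untreated cells, 51.6, 67.4 and 24.6 CPM after 2 h and 49.8, 61.9 and 44.98 CPM after 6 h of tunicamycin. Thapsigargin gave 41.7 CPM at 2 h and 7.96 CPM at 6 h, the latter 6.56-fold below the tunicamycin mean and 13.8-fold below the untreated mean. At 2 h the log2 ratio to the tunicamycin mean was -0.05 in RNA and 0.21 without tunicamycin replicate 1, and -0.20 in footprints and 0.13 without replicate 2, so it had no settled direction. As each thapsigargin value is 1 library, none of these ratios has a replicate check.

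Counted over the 7 genes, 6 were at least 2-fold over the tunicamycin mean with thapsigargin at each time and in each assay, by the choice of members. Among all genes tested the same mark was reached by 15.3% at 2 h and 15.2% at 6 h in RNA and by 9.65% and 10.8% in footprints. These shares include genes with counts near 0 in most libraries, because a gene could pass the filter on 1 library. In RNA 41130 genes were tested, and 31144 without untreated replicate 1. Being above every untreated library and every tunicamycin library of the same time held for the same 6 genes. Over all genes it held for 14.9% and 14.5% in RNA and 13.2% and 17.7% in footprints. The count of 6 stood with library size alone as the scaling and against tunicamycin replicate 1 alone, and fell to 5 only for RNA at 2 h without tunicamycin replicate 1. RGS4 was at least 2-fold below the tunicamycin mean at 6 h in both assays, as were 24% of all genes in RNA and 27% in footprints; at 2 h no member was, against 24.5% and 22.1%. Over the untreated mean, 6 of the 7 were at least 2-fold higher at each time in each assay, as were 6.77% and 9.7% of all genes in RNA at 2 h and 6 h and 10.1% and 13.5% in footprints. Among these 6 the folds over untreated were largest for NR4A3, 46.0 at 2 h in RNA, and smallest for RGS16 and RGS3, 3.45 at 6 h and 3.55 at 2 h in footprints. The plot of thapsigargin ratios shows each library in turn.

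**Figure D3:**
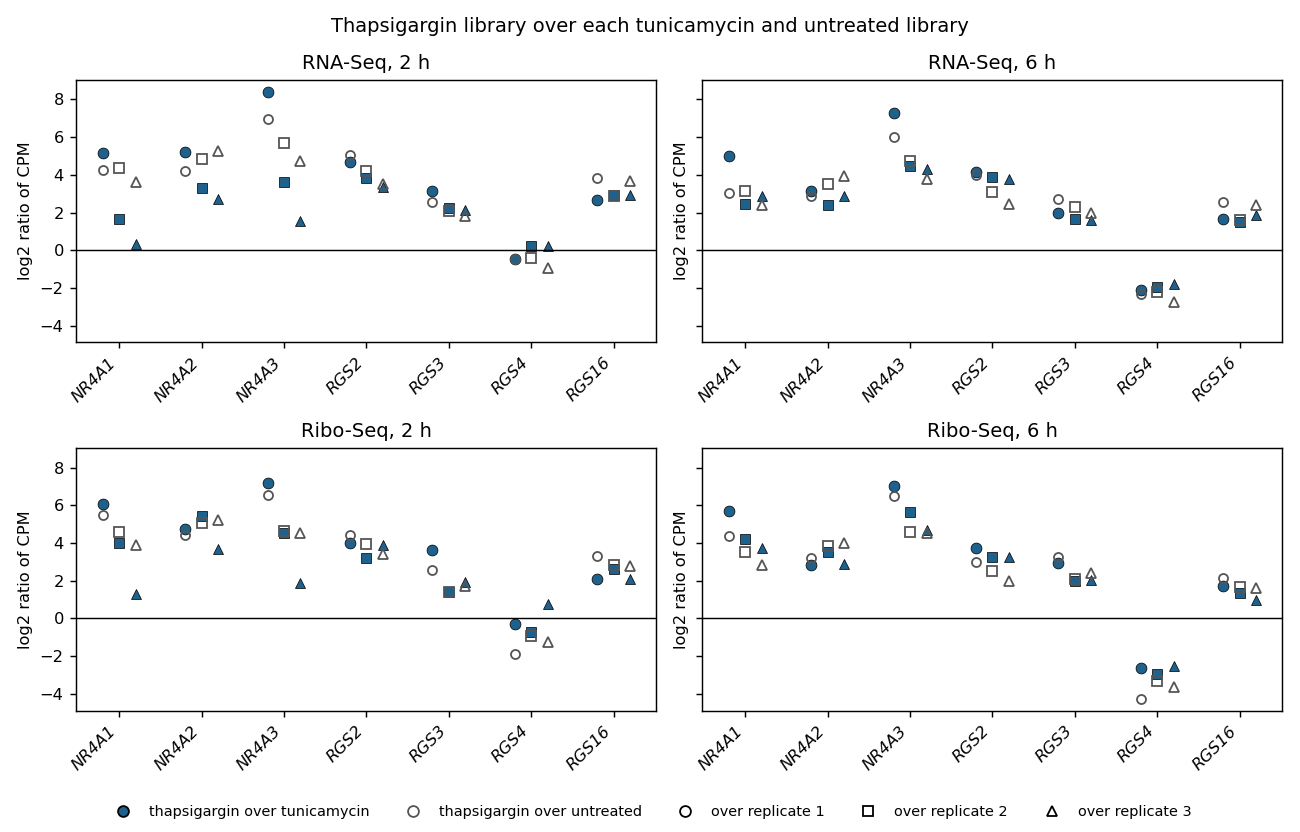
Log2 ratio of the thapsigargin library to each tunicamycin library of the same time (filled) and to each untreated library (open), per gene, in RNA-Seq (top) and Ribo-Seq (bottom) at 2 h and 6 h; the shape gives the replicate number of the library in the denominator. Ratios lie above 0 for 6 genes in all panels, close to 0 for NR4A1 against tunicamycin replicate 3 at 2 h in RNA, and below 0 for RGS4 at 6 h.

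Between 2 h and 6 h of thapsigargin, RNA fell 2.33-fold for NR4A1, 2.53-fold for NR4A2, 1.92-fold for NR4A3, 2.13-fold for RGS2, 2.43-fold for RGS16 and 3.57-fold for RGS4, with 1 library at each time and no test. Footprints of NR4A1, NR4A2, RGS2 and RGS16 were 2.12-fold to 2.71-fold lower at 6 h, close to their RNA. NR4A3 differed: its footprints were 1.03-fold lower while its RNA was 1.92-fold lower, so that its footprint CPM over RNA CPM went from 0.98 to 1.82. Among tunicamycin libraries at 2 h, NR4A3 footprints and RNA were 2.47 and 1.08 CPM in replicate 1. They were 15.3 and 30.1 CPM in replicate 2 and 97.8 and 123 CPM in replicate 3, so this ratio also varied between replicates. For RGS4 footprints were 5.24-fold lower against 3.57-fold for RNA, and this ratio went from 0.674 to 0.459. NR4A1 had a ratio of 2.84 and 3.13 with thapsigargin, against 2.05 in the untreated means and 1.21 and 1.33 in the tunicamycin means. At 2 h, tunicamycin replicates 1, 2 and 3 had NR4A1 footprints of 33.7, 142 and 944 CPM. Their RNA was 22.2, 256 and 645 CPM. Each thapsigargin ratio rests on 1 library per assay, and the spread of these ratios between libraries was not computed.

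The tests concern tunicamycin, which the choice of members used as the lower side, so a low tunicamycin value is in part chosen. They used edgeR's quasi-likelihood test over all genes, with no term for the replicate number. After 2 h of tunicamycin against untreated cells in RNA, edgeR called none of the 7 genes at an adjusted p under 0.05. There 0.00973% of genes were called. None was called after 6 h (1.5% of genes) or between 6 h and 2 h (0.742%). By direction the background in RNA was 0.00973% higher and 0% lower at 2 h, 1.23% and 0.275% at 6 h, and 0.588% and 0.153% from 2 h to 6 h. None was called in footprints in the same 3 comparisons, where the background was 0%, 0.84% and 0.752%, made up of 0.67% higher and 0.17% lower at 6 h and of 0.608% and 0.144% from 2 h to 6 h. At an unadjusted p under 0.05 there were 3, 0 and 4 of the 7 in RNA, against 8.06%, 17.4% and 9.75% of all genes, and 2, 2 and 2 in footprints, against 3.19%, 12.1% and 10% of all genes. DESeq2 also called none, with 4, 2 and 4 in RNA and 2, 2 and 3 in footprints at an unadjusted p under 0.05.

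NR4A1 and NR4A3 had large fitted changes with wide errors. For NR4A1 RNA the log2 fold changes were 2.66 ± 0.94 (SE; edgeR adjusted p = 0.548) at 2 h against untreated and -2.94 ± 0.95 (adjusted p = 0.259) from 2 h to 6 h. For NR4A3 they were 2.69 ± 1.24 (adjusted p = 0.548) and -2.99 ± 1.25 (adjusted p = 0.443), and for NR4A2 1.29 ± 0.52 (adjusted p = 0.548) and -0.69 ± 0.51 (adjusted p = 0.834). These values rest on the split among replicates: at 2 h NR4A1 lay 1.13 below the untreated mean on the log2 scale in replicate 1 and 2.39 and 3.72 above it in replicates 2 and 3, and NR4A3 lay 2.88 below, 1.91 above and 3.95 above. Without tunicamycin replicate 3 the 2 h change was 1.51 for NR4A1 and 0.97 for NR4A3, and without replicate 1 it was 3.20 and 3.27, with adjusted p from 0.477 to 0.793 in these fits. With replicates 2 and 3 alone in the groups compared, NR4A2 had 2.07 ± 0.30 (adjusted p = 0.0908). At 6 h against untreated, the RNA log2 fold change was -0.28 ± 0.89 for NR4A1, 0.59 ± 0.51 for NR4A2 and -0.30 ± 1.17 for NR4A3 (edgeR adjusted p from 0.518 to 0.901).

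Among the RGS genes, RGS3 RNA was higher at 6 h than at 2 h in all libraries (0.88 ± 0.30, edgeR adjusted p = 0.278), and with the replicate number as a block the change was 0.94 ± 0.18 with an adjusted p of 0.0409, the 1 fit that called it. RGS2 RNA was lower at 6 h than at 2 h in all libraries (-1.17 ± 0.41, adjusted p = 0.309), and so were its footprints (-1.17 ± 0.34, adjusted p = 0.202). RGS4 footprints were below all untreated libraries at 2 h (-1.19 ± 0.36, adjusted p = 1) and at 6 h (-1.07 ± 0.36, adjusted p = 0.25), and the 6 h change reached an adjusted p of 0.0339 when genes with low counts were kept in the fit. RGS16 footprints were above all untreated libraries at 2 h (0.73 ± 0.32, adjusted p = 1). RGS4 RNA at 6 h was below (-0.50 ± 0.25, adjusted p = 0.319), and RGS3 RNA above (0.56 ± 0.29, adjusted p = 0.334), every untreated library. The plot of fitted changes sets these beside their errors.

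**Figure D4:**
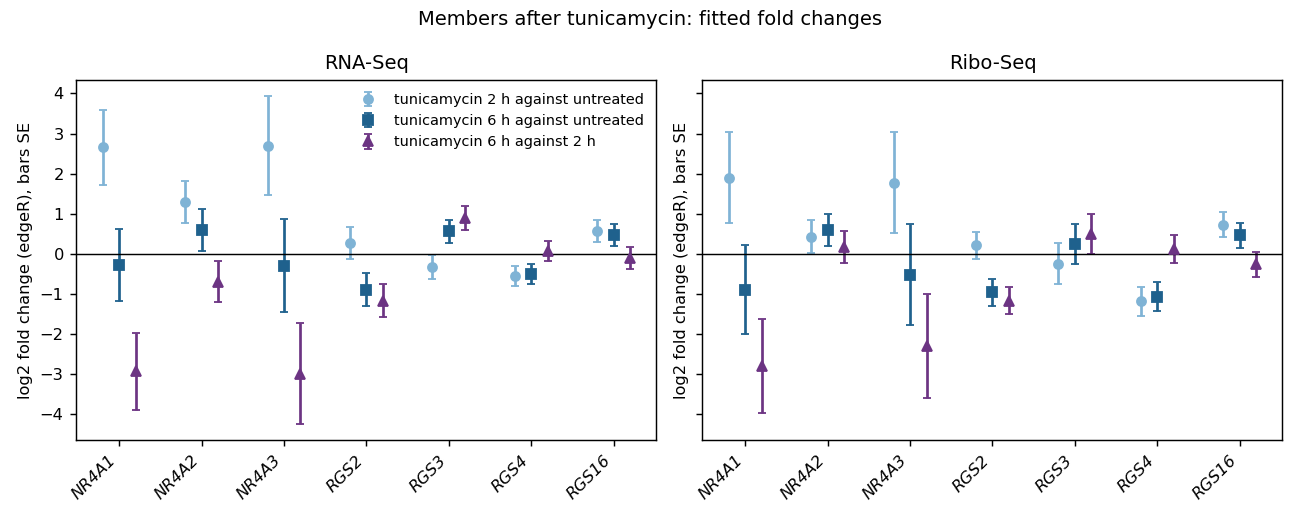
Fitted log2 fold changes (edgeR) of the 7 genes for tunicamycin at 2 h and 6 h against untreated cells and for 6 h against 2 h, in RNA-Seq (left) and Ribo-Seq (right); bars are the SE. NR4A1 and NR4A3 have changes of up to -2.99 with SE of 0.89 to 1.3, and the RGS genes lie between -1.19 and 0.88 with smaller bars.

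Few of the members had tunicamycin libraries that lay wholly to 1 side of the group compared. In RNA 1 gene was wholly higher and 1 wholly lower at 6 h than untreated (10.5% and 10.6% of all genes), and 1 and 1 at 6 h than at 2 h (10.3% and 9.21%), with none at 2 h (3.44% higher and 5.88% lower). In footprints it was 1 higher and 1 lower at 2 h (2.58% and 3.76%), 2 lower at 6 h (11.1%; none higher, 9.54%) and 1 lower from 2 h to 6 h (8.53%; none higher, 9.1%).

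Translational efficiency, the footprint change beyond the RNA change, was taken from the interaction of assay and treatment, with edgeR fitted to all 22 libraries. None of the 7 genes was called at 2 h or 6 h of tunicamycin, nor did edgeR call any gene of the table (0% at both times; DESeq2 called 4 and 5 genes of the table). No member had an unadjusted p under 0.05 (4% and 3.82% of all genes did by edgeR), by edgeR or by DESeq2, which called 0 members at both times. The estimates ran from -0.89 ± 1.83 for NR4A3 to 0.27 ± 0.38 for RGS16 at 2 h and from -0.56 ± 1.53 for NR4A1 to 0.13 ± 0.76 for NR4A2 at 6 h. The SEs were 0.76 to 1.85 for the 3 NR4A genes and 0.38 to 0.62 for the RGS genes, on the log2 scale.

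The other genes of these pathways were followed in lists chosen with earlier results of the data known. Among 17 other RGS genes, all tested in RNA and 10 in footprints, edgeR called 0 in every comparison, with 1, 6 and 3 at an unadjusted p under 0.05 in RNA (2 h, 6 h, and 6 h against 2 h) and 1, 2 and 0 in footprints; 17.4% of all genes passed that mark in RNA at 6 h. DESeq2 called RGS12 and RGS19 in RNA at 6 h and no other, and RGS19 had an edgeR log2 fold change of -0.78 ± 0.26 (adjusted p = 0.19). RGS5 RNA at 6 h was -2.65 ± 0.99 (edgeR adjusted p = 0.227), a value that rests on untreated replicate 1 and was 0.23 without it. RGS1, RGS6, RGS11, RGS13, RGS18, RGS21 and RGS22 were at most 0.392 CPM in RNA outside that library, where each had its highest level. Untreated replicate 1 thus weighs on their comparisons with untreated cells too. With thapsigargin 0 of the 17 at 2 h and 3 at 6 h were at least 2-fold over tunicamycin in RNA, and 0 and 1 of 10 in footprints. The 3 in RNA were RGS1, RGS18 and RGS22, with 9, 3 and 6 counts in the thapsigargin library, too few to read a difference from, and their highest counts, 62, 63 and 109, were in untreated replicate 1.

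Of 29 genes for G protein subunits and their effectors, 1 fell in RNA at 6 h of tunicamycin: ADCY9, an adenylyl cyclase that makes cyclic AMP, from 57.3 ± 6.36 to 26.5 ± 4.48 CPM (SD, n = 3; log2 fold change -1.12 ± 0.23, edgeR adjusted p = 0.0453). That call held in 6 of 13 alternatives, with adjusted p from 5.18e-05 to 0.197. It was lost without untreated replicate 2 (edgeR adjusted p = 0.116) or 3 (0.0816) and without tunicamycin replicate 1 (0.154), 2 (0.0934) or 3 (0.197). The ADCY9 call was also lost with no filter on low counts (0.0629) and with replicates 2 and 3 alone (0.0673). DESeq2 called 5 of the 29 in RNA at 6 h, all lower (ADCY1, ADCY6, ADCY9, GNAZ and PLCB2), 2 from 2 h to 6 h, both lower (ADCY9 and GNAZ), and in footprints ADCY4 higher at 6 h. Of 7 genes for receptor desensitisation, such as arrestins and receptor kinases, edgeR called 0 in all comparisons, with 1, 3 and 1 at an unadjusted p under 0.05 in RNA and 0, 1 and 0 in footprints; DESeq2 called ARRB1 in RNA at 6 h alone (edgeR -1.43 ± 0.39, adjusted p = 0.119). Without untreated replicate 1 the ARRB1 change was -0.73 ± 0.19 (adjusted p = 0.0908). GRK3, at most 0.854 CPM in these RNA-Seq groups, had -2.66 ± 0.96 (edgeR adjusted p = 0.215), a value that rests on that same library and was -0.39 ± 0.56 without it (adjusted p = 0.771).

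In the list of 38 genes of calcium, calcineurin, MEF2 and CREB signalling, which carries calcium signals to the NR4A promoters, edgeR called 1 gene, which rose. RCAN1, an inhibitor of calcineurin and itself a target of NFAT, went from 400 ± 92.6 CPM in untreated cells to 707 ± 234 CPM at 2 h and 1950 ± 375 CPM at 6 h of tunicamycin in RNA (SD, n = 3). The 6 h change was 2.29 ± 0.32 (edgeR adjusted p = 0.00757), called in all 13 alternatives, and 1.69 ± 0.35 in footprints (adjusted p = 0.0426). Thapsigargin gave 2484 CPM at 2 h and 4655 CPM at 6 h, above every tunicamycin library. DESeq2 called 3 of the list in RNA at 6 h (CREB1, MEF2C and RCAN1; 2 higher), 4 from 2 h to 6 h (CALM3, CREB1, NFATC1 and RCAN1; 2 higher), and in footprints 2 at 6 h (NFATC2 and RCAN1; 1 higher) and 3 from 2 h to 6 h, all higher (CREB1, HDAC9 and RCAN1). In this list 6 of 38 genes at 2 h and 7 at 6 h were at least 2-fold over tunicamycin with thapsigargin in RNA, beside the 15.3% and 15.2% of all genes given above. At least 2-fold below were 2 and 5 (24.5% and 24% of all genes). In footprints 3 of 36 genes at 2 h and 8 at 6 h were at least 2-fold over (9.65% and 10.8%). There 1 and 6 were at least 2-fold below (22.1% and 27%).

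Of the 31 other immediate early genes, edgeR called 0 in any comparison: 14 of the 31 had an unadjusted p under 0.05 in RNA at 2 h, against 8.06% of all genes, and the list's median log2 fold change was 1.06 against -0.17 over all genes. From 2 h to 6 h the median was -0.98 against 0. DESeq2 called ATF3, EGR2 and KLF10 higher in RNA at 2 h, 4 genes at 6 h (ATF3, DUSP4, KLF4 and PTGS2; 3 higher) and 7 from 2 h to 6 h, all lower (BTG2, DUSP4, EGR1, EGR2, EGR3, JUNB and KLF10). In footprints it called 0 at 2 h, 2 at 6 h (DUSP2 and KLF4; 1 higher) and 4 from 2 h to 6 h (EGR1, EGR2, EGR3 and PTGS2; 1 higher). ATF3, a stress-induced transcription factor, was at 13.7 ± 7.03 CPM in untreated cells and 134 ± 116 CPM at 2 h of tunicamycin (3.29 ± 0.70, edgeR adjusted p = 0.548), and 615 CPM at 2 h of thapsigargin. EGR2, a zinc finger factor, was at 9.55 ± 3.17 and 74.2 ± 58.4 CPM (2.96 ± 0.61, adjusted p = 0.548), and 57.5 CPM with thapsigargin, below the tunicamycin mean. With replicates 2 and 3 alone edgeR called both, ATF3 at 3.44 ± 0.34 and EGR2 at 3.74 ± 0.37 (adjusted p = 0.0235 each). Without tunicamycin replicate 1 EGR2 was called (3.42 ± 0.38, adjusted p = 0.0391) and ATF3 was at 3.78 ± 0.47 (adjusted p = 0.075). In RNA at 2 h of thapsigargin, 7 of the 31 were at least 2-fold over the tunicamycin mean and 9 at least 2-fold below. The shares over all genes were 15.3% and 24.5%. At 6 h the counts were 9 and 7 (15.2% and 24% of all genes). In footprints they were 9 and 5 at 2 h (9.65% and 22.1%) and 12 and 5 at 6 h (10.8% and 27%). At least 2-fold over the untreated mean were 15 at 2 h and 9 at 6 h in RNA (6.77% and 9.7%), and 16 and 6 in footprints (10.1% and 13.5%).

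Of 11 partners and cofactors of the NR4A receptors, 1 fell: PPARGC1B, a coactivator of nuclear receptors, from 12.0 ± 2.93 to 2.53 ± 1.37 CPM in RNA at 6 h (-2.24 ± 0.42, edgeR adjusted p = 0.0291) and with a log2 fold change of -2.80 ± 0.57 in footprints (adjusted p = 0.0422). The RNA call held in 8 of 13 alternatives and was lost without untreated replicate 2 (edgeR adjusted p = 0.0908) and without tunicamycin replicate 1 (0.0941) or 3 (0.171). The PPARGC1B call was also lost with the compared groups only (0.0603) and with replicates 2 and 3 alone (0.0771). Its thapsigargin RNA levels, 4.98 and 2.30 CPM, were near those of tunicamycin at the same times.

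Across the 11 RNA-Seq libraries, the members' log2 levels were compared with 14621 genes by Pearson's r, as a description, since the libraries share treatments and depth. They include the thapsigargin libraries, whose high values were used to choose the members. A high r between members, or with other genes high there, therefore follows in part from that choice. NR4A1 was most like REL, a subunit of NF-kappaB (r = 0.980; 0.826 in footprints), and REL was second for NR4A3 (0.968; 0.788). The pseudogene NONOP2 was second for NR4A1 (0.970; 0.587) and first for NR4A3 (0.970; 0.539). NR4A1 and NR4A3 followed each other with r = 0.962 in RNA and 0.980 in footprints. The gene most like RGS2 was KLF3, a zinc finger repressor (0.971; 0.813), followed by the pseudogene HMGB1P8 (0.966; -0.17), and that most like RGS3 was BMP2, a secreted growth factor (0.940; 0.888), followed by AFF1 (0.931; 0.391). For RGS16 the kinase gene CLK3 came second (0.948; 0.646) after C1QTNF7-AS1 (0.956), an antisense entry that cannot be told apart from its overlapping gene here because the strand setting is not stated. RGS4 was most like INPP4A, a phosphoinositide phosphatase (0.919), with a lower r in footprints (0.367), and then SORD2P (0.892; -0.21). For NR4A2 the nearest entries were RPS12P3 (0.957), with 0.468 in footprints, and MIR3142HG (0.956; 0.596). Levels of pseudogenes are uncertain, since their reads may belong to near-identical parents.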

How the data were processed

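RNA-Seq and Ribo-Seq counts per gene entry were deposited by the authors, 1 table of raw counts per library. STAR 2.5.4b, HTSeq and DESeq2, with GRCh38, are named per the submitters' processing notes; the sources used here do not state annotation, counted features or strand. From these counts, low entries were removed with filterByExpr (minimum count 10), libraries were scaled by TMM, and edgeR 4.0.16 (limma 3.58.1, R 4.3.3) fitted a robust quasi-likelihood model over the 11 libraries of an assay, or all 22 for translational efficiency. All 7 members passed the filter, for which enough counts in 1 library were sufficient. P-values were Benjamini-Hochberg adjusted over 41130 (RNA), 19411 (footprints) or 18500 (both) genes, with 0.05 as the threshold for a call. Log2 CPM used a prior count of 2, and ratios of CPM used none. The scripts were tested on simulated data.

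The members and gene lists were chosen with earlier results of these data known. All members are named; by rule, up to 3 called genes of each list, or with none called the 2 with the smallest p in RNA-Seq, were named, with the 2 genes most correlated with each member (mean CPM of at least 1); other list genes that DESeq2 called, and RGS1, RGS18 and RGS22, were named after their values were seen. Contrasts of thapsigargin with tunicamycin, thapsigargin with untreated and tunicamycin with untreated share libraries. Replicate numbers come from the titles. Same-numbered libraries deviated together with r from 0.109 to 0.676, except RNA of untreated and 2 h tunicamycin replicate 2 (r = 0.0757). In RNA, unlike-numbered pairs of replicates 2 and 3 also had positive r, up to 0.324. Pairs of replicate 1 with replicate 2 or 3 had negative r. Deviations were taken from the mean of the 3 libraries of a group and cancel within it. That by itself pushes unlike-numbered pairs to negative r, so the negative values show little. In RNA, pairs among replicates 2 and 3 had positive r with like or unlike numbers. There the numbers set replicate 1 apart more than they pair replicates 2 and 3. In footprints unlike-numbered pairs had r of at most 0.0764. The main fits had no term for the replicate number, and a block by number was run as an alternative. Ribo-Seq libraries of thapsigargin are unnumbered in their titles and did not enter the fit with that block. Alternatives were library size alone, RLE size factors, no filter, the compared groups only, the replicate block, replicates 2 and 3 alone, DESeq2 1.42.0 and leaving out each replicate.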

Additional observations from a re-analysis of the deposited data

Results flagged for a closer look

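RGS3 RNA stood out because its tunicamycin libraries were on opposite sides of the untreated mean at the 2 times: all 3 were below it at 2 h and all 3 above it at 6 h. At 2 h replicates 2 and 3 lay only 0.13 and 0.023 below it on the log2 scale. The 2 h libraries overlapped the untreated ones. The share of all genes with this pattern was not counted. The difference of 6 h and 2 h was 0.88 on the log2 scale (edgeR adjusted p = 0.278), and 0.94 with the replicate block (adjusted p = 0.0409).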

How the results depend on the processing

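The count of called members was 0 in each tunicamycin comparison under every alternative run, with 2 exceptions: 1 (RGS3) in RNA at 6 h against 2 h with the replicate block, and 1 (RGS4) in footprints at 6 h without a filter on low counts. Over all genes those 2 fits called 1121 of 41130 and 745 of 36925, against 305 of 41130 and 163 of 19411 in the main fits. The replicate block changed no other call of a member. Of 812 alternative values of the members, 64 changed sign, 50 of them among 420 that left out a replicate; none was called, and the cause was not tested. With replicates 2 and 3 alone these were NR4A1 0.085 in RNA at 6 h, RGS16 0.0037 in RNA and NR4A2 -0.098 in footprints from 2 h to 6 h, and, for translational efficiency, RGS2 -0.11 at 2 h and 0.087 at 6 h and NR4A2 -0.32 at 6 h. With library size alone they were RGS4 -0.041 in RNA from 2 h to 6 h and RGS2 efficiency 0.090 at 6 h. RGS2 efficiency was also -0.096 at 2 h with no filter, and at 6 h 0.051 with RLE factors, 0.065 with the compared groups only and 0.049 with DESeq2; with the replicate block, efficiency at 6 h was 0.014 for NR4A1 and 0.095 for NR4A3.

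Leaving out each replicate gave these ranges of log2 fold change where a sign changed. RNA at 2 h: RGS2 -0.073 to 0.71. RNA at 6 h: NR4A1 -0.77 to 0.18, NR4A3 -0.70 to 0.35, RGS5 -3.18 to 0.23. RNA from 2 h to 6 h: RGS4 -0.053 to 0.33, RGS16 -0.20 to 0.0045. Footprints at 2 h: NR4A1 -0.18 to 2.44, NR4A2 -0.17 to 0.75, NR4A3 -0.33 to 2.35, RGS2 -0.077 to 0.51, RGS3 -0.75 to 0.17. Footprints from 2 h to 6 h: NR4A2 -0.16 to 0.76, RGS4 -0.19 to 0.45. Efficiency at 2 h: NR4A1 -2.76 to 0.46, NR4A3 -2.99 to 0.82, RGS2 -0.39 to 0.36, RGS3 -0.35 to 0.58, RGS16 -0.011 to 0.45. Efficiency at 6 h: NR4A2 -0.34 to 0.48, NR4A3 -0.88 to 0.20, RGS2 -0.40 to 0.29, RGS3 -0.46 to 0.028, RGS16 -0.21 to 0.24.

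The number of members at least 2-fold over tunicamycin with thapsigargin was 6 under every alternative but 1, RNA at 2 h without tunicamycin replicate 1, where it was 5. Over all genes, calls in RNA at 6 h were 617 (504 higher), 416 (298 higher) with library size alone, 1624 with the replicate block, 2485 with DESeq2 and 187 to 963 without 1 replicate. In RNA at 2 h they were 4, and 2 with the compared groups only, 8 with the block, 13 with replicates 2 and 3 alone and 68 with DESeq2; from 2 h to 6 h they were 305, and 737, 1121, 99 and 1583, and 23 to 223 without 1 replicate. In footprints at 6 h they were 163, and 386 with the block, 745 without a filter, 80 with replicates 2 and 3 alone, 686 with DESeq2 and 34 to 166 without 1 replicate; from 2 h to 6 h they were 146, and 364, 495, 21, 526 and 30 to 162. Library size alone moved the median over all genes from -0.17 to -0.37 in RNA at 2 h and from -0.27 to -0.58 at 6 h. Levels per transcript length were planned and not run. Footprint counts as low as 19 (NR4A3) limit the precision there.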
